A study of Chlamydomonas reinhardtii with 9 samples.

Results

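The 7 genes described here make, coat or mobilise storage and membrane lipids in Chlamydomonas reinhardtii, a unicellular green alga. They were chosen by locus number and name out of 17737 identifiers in the count files. They are DGTT1 (Cre12.g557750), DGTT3 (Cre06.g299050), DGTT4 (Cre03.g205050), PDAT1 (Cre02.g106400), MLDP1 (Cre09.g405500), PGD1 (Cre03.g193500) and BTA1 (Cre07.g324200). All 7 were present and all 7 had enough counts to be among the 14778 genes tested. The names come with the list of members. Neither the count files nor the RefSeq gene table used here pairs these locus numbers with a name, so the names could not be checked, and no sequences are shown.

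RNA sequencing was done on wild-type cells of strain CPCC11 held for 2 h in a synthetic freshwater medium. There were 3 control cultures, 3 cultures with 0.05 nM methylmercury (MeHg), a toxic organic mercury compound, and 3 cultures with 0.5 nM MeHg. The 0.05 nM libraries carry other label wording than the rest, and a sequencer is stated for them alone, so dose and submission cannot be told apart where 0.05 nM is compared. Each library held 15138888 to 20433375 counts assigned to genes.

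Triacylglycerol is the main storage lipid of this alga, and it is packed into droplets when growth is checked, for example by loss of nitrogen. Its last step joins one more fatty acid to diacylglycerol. Diacylglycerol acyltransferases take that fatty acid from acyl-CoA, and PDAT takes it from a membrane lipid. Membrane lipids of the chloroplast are galactolipids, while the membranes outside it contain a betaine lipid, DGTS, in the place that phosphatidylcholine holds in most plants. DGTS is built by BTA1 from diacylglycerol and S-adenosylmethionine.

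The members moved in both directions. BTA1 and DGTT4 were higher at both doses of MeHg than in the controls. PGD1 was called lower at both, and DGTT1 at 0.5 nM. The lower calls depended on the scaling, since with libraries scaled by their totals alone 0 members were called lower at either dose. The call of PGD1 at 0.5 nM was lost in 6 of 15 alternative settings, that scaling among them, and its libraries overlapped the controls. DGTT3, PDAT1 and the droplet protein MLDP1 did not pass the test at either dose with group as the only term. With the replicate number added as a block, DGTT3 passed as higher at both doses and PDAT1 as lower at 0.5 nM. At 0.05 nM against control 2 members rose and 1 fell out of 7, in a comparison in which 52.2% of all genes passed, 27.2% as higher and 25.0% as lower (edgeR's quasi-likelihood test, Benjamini-Hochberg adjusted p under 0.05). At 0.5 nM against control 2 rose and 2 fell, where 60.3% of all genes passed, 31.6% as higher and 28.7% as lower. These counts are close to that background and are no result about the members as a group. Before adjustment 4 members had a p under 0.05 at 0.05 nM and 5 at 0.5 nM, beside 58.1% and 64.3% of all genes. The median log2 change of the 7 members was -0.16 at 0.05 nM and 0.05 at 0.5 nM, beside medians over all genes of 0.05 and 0.07. Both doses were set against the same 3 controls, so the calls at the doses are not independent of each other.

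**Figure D1:**
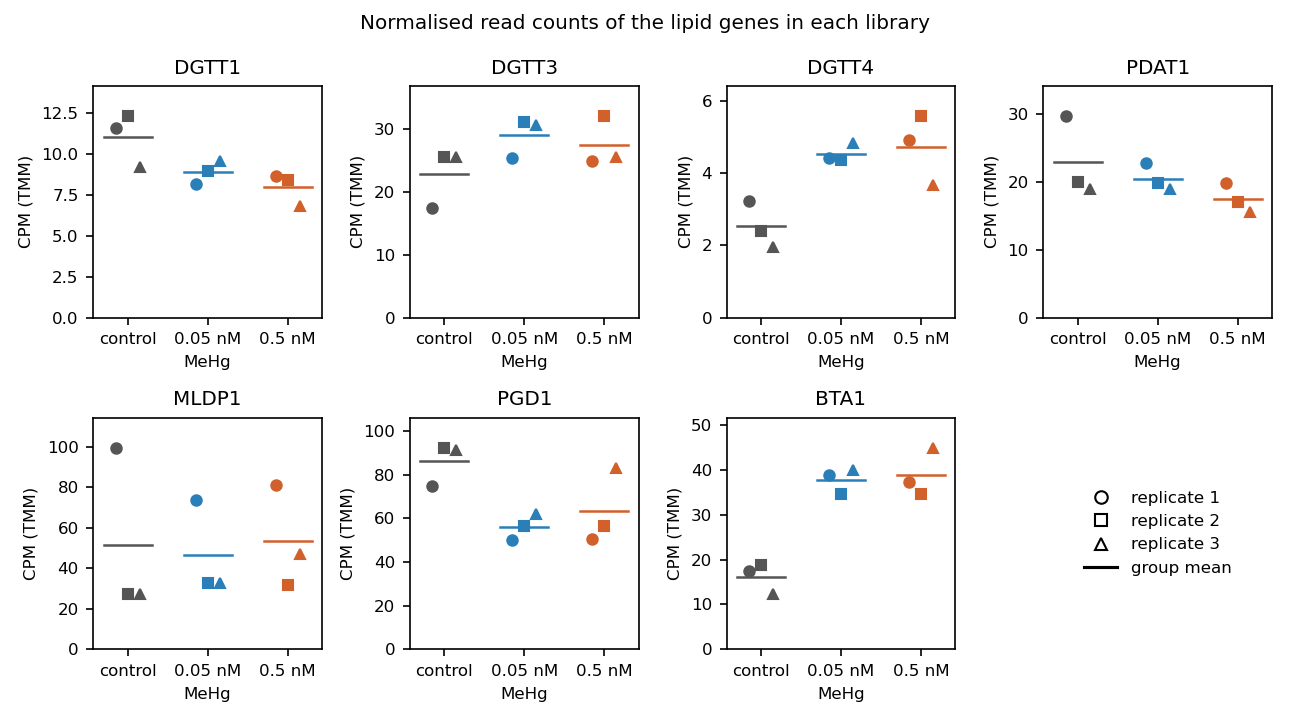
Normalised read counts (CPM after TMM correction, linear axis from 0) of the 7 genes in each of the 9 libraries, with 1 point per library, its shape giving the replicate number, and a line at each group mean. All 6 libraries with MeHg lie above all 3 controls for BTA1, at 34.6 to 45.0 against 12.3 to 18.8 CPM, while for MLDP1 the replicate 1 libraries stand above the others in every group.

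Levels are given as CPM, a gene's counts scaled to a common library total with TMM factors applied. CPM are not divided by gene length, so they compare 1 gene between libraries and not 1 gene with another. Reads with several alignments, which were left unassigned, equalled 24.2% to 43.7% of assigned counts among control libraries, 19.0% to 21.6% at 0.05 nM and 20.8% to 23.0% at 0.5 nM, and their part in the results was not tested. These are bulk cultures, in which a small change in all cells and a large one in some cannot be told apart. Libraries of replicate number 1 deviated together (correlations of 0.57 to 0.63), and those of numbers 2 and 3 less clearly (0.104 to 0.366). Values of the members from a fit with the replicate number as a block are given wherever it changes a call. With the block 3 members rose and 2 fell at 0.05 nM, where 63.6% of all genes passed, 33.2% as higher and 30.5% as lower. At 0.5 nM 3 rose and 3 fell with the block, where 69.6% of all genes passed, 36.7% as higher and 32.8% as lower. Where libraries were scaled by their totals alone, the median gene moved up by 0.26 on the log2 scale at 0.05 nM and by 0.29 at 0.5 nM, so each direction below is relative to the composition-corrected scale.

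BTA1, the betaine lipid synthase, had the largest log2 change of the 7 at both doses. Its level was 17.5, 18.8 and 12.3 CPM in the controls, 38.9, 34.6 and 40.1 CPM at 0.05 nM and 37.2, 34.8 and 45.0 CPM at 0.5 nM. Every MeHg library lay above every control, with no overlap at either dose, as was the case for 60.1% of all genes at 0.05 nM and 63.2% at 0.5 nM. At 0.05 nM the group means were 37.9 ± 2.86 against 16.2 ± 3.48 CPM in the controls (SD, n = 3 each). The log2 change there was 1.22 ± 0.155 (SE), or 2.33-fold, with an edgeR adjusted p of 6.25e-05. At 0.5 nM the mean was 39.0 ± 5.35 CPM (SD, n = 3), with a log2 change of 1.26 ± 0.155 (edgeR adjusted p = 3.25e-05), or 2.40-fold. In absolute size this change exceeded that of 90.5% of all genes at 0.05 nM and of 85.9% at 0.5 nM. The gene passed at both doses under all 15 alternative settings tried, with log2 changes of 1.06 to 1.47 at 0.05 nM and 1.10 to 1.54 at 0.5 nM.

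Among the 3 members listed as acyltransferases that use acyl-CoA, DGTT4 passed as higher. Its counts were low, at 62, 32 and 27 reads in the controls, 87, 83 and 87 at 0.05 nM and 114, 110 and 55 at 0.5 nM. As CPM these were 3.22, 2.41 and 1.95 in the controls, 4.40, 4.37 and 4.83 at 0.05 nM and 4.92, 5.57 and 3.67 at 0.5 nM. Every MeHg library was above every control, and the closest pair was 0.5 nM replicate 3 and control replicate 1. The groups did not overlap for 60.1% of all genes at 0.05 nM and 63.2% at 0.5 nM. The log2 change was 0.82 ± 0.211 at 0.05 nM (SE; edgeR adjusted p = 0.00672) and 0.89 ± 0.21 at 0.5 nM (edgeR adjusted p = 0.00325), or 1.76-fold and 1.85-fold. Both calls held under all 15 alternatives, with adjusted p-values of 0.00161 to 0.0280 at 0.05 nM and 0.000695 to 0.0158 at 0.5 nM.

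DGTT1, an acyltransferase gene known in this alga to rise when nitrogen is withdrawn, fell at 0.5 nM. It was measured at 11.6, 12.3 and 9.16 CPM in the controls, 8.15, 8.95 and 9.56 CPM at 0.05 nM and 8.63, 8.36 and 6.80 CPM at 0.5 nM. The 0.5 nM libraries all lay below the controls, while at 0.05 nM replicate 3 lay above control replicate 3. At 0.5 nM 63.2% of all genes had no overlap with the controls. At 0.5 nM it fell by 0.47 ± 0.145 on the log2 scale (SE; edgeR adjusted p = 0.0150), and this call was lost without control replicate 2 (adjusted p = 0.0579) and with library totals alone (adjusted p = 0.429). Its alternatives spanned adjusted p-values of 0.00412 to 0.429. The log2 change at 0.05 nM was -0.31 ± 0.144 (edgeR adjusted p = 0.0894). It passed there with the replicate block (adjusted p = 0.0441) and without control replicate 3 (adjusted p = 0.0317), and the alternatives spanned 0.0317 to 0.81.

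DGTT3 was measured at 17.4, 25.5 and 25.5 CPM in the controls, 25.3, 31.0 and 30.6 CPM at 0.05 nM and 24.9, 32.0 and 25.5 CPM at 0.5 nM. Control replicate 1 was the lowest library, and the groups overlapped at both doses. The log2 change was 0.35 ± 0.159 at 0.05 nM (SE; edgeR adjusted p = 0.0826) and 0.28 ± 0.16 at 0.5 nM (edgeR adjusted p = 0.155). With the replicate block DGTT3 passed as higher at both doses (adjusted p = 0.00393 and 0.0144). It also passed with library totals alone (adjusted p = 0.00535 and 0.00628), a scaling that moved the median gene up by 0.26 and 0.29. Over all its alternatives the adjusted p ran from 0.00393 to 0.289 at 0.05 nM and from 0.00628 to 0.534 at 0.5 nM.

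**Figure D2:**
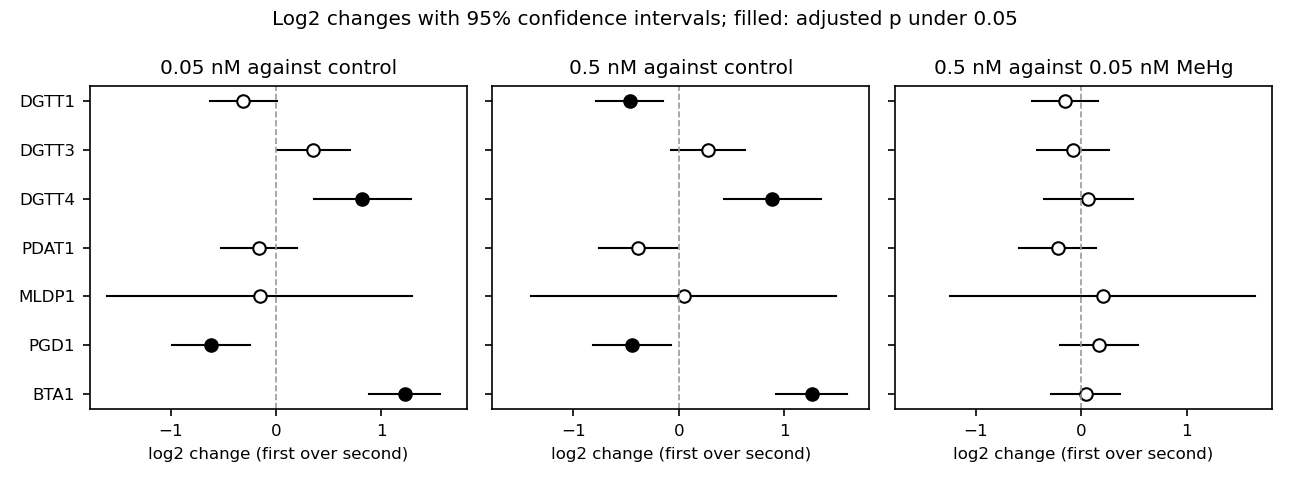
Log2 change of each gene in edgeR's fit (horizontal axis, first-named group over second) with its 95% confidence interval, for the comparisons of 0.05 nM with control, 0.5 nM with control and 0.5 nM with 0.05 nM MeHg. Filled points passed at an adjusted p under 0.05: 3 genes at 0.05 nM, 4 at 0.5 nM and 0 between the doses, and the interval of MLDP1 is the widest in each panel.

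A ratio of counts of 2 genes in the same library does not depend on how libraries are scaled. The ratios given here were chosen after the values were seen and are descriptions, with no test. The count of DGTT4 relative to DGTT1 was 0.278, 0.196 and 0.213 in the controls, 0.540, 0.488 and 0.506 at 0.05 nM and 0.57, 0.667 and 0.539 at 0.5 nM. All 6 MeHg libraries lay above all 3 controls in this ratio. The ratio of DGTT3 to DGTT1 was 3.26 ± 0.19 at 0.05 nM and 3.48 ± 0.521 at 0.5 nM, against 2.12 ± 0.64 in the controls (SD, n = 3 each). There the lowest MeHg library, at 2.885, was only just above the highest control, at 2.78. For DGTT4 relative to DGTT3 the groups overlapped, at 0.141 to 0.174 at 0.05 nM and 0.144 to 0.198 at 0.5 nM, against 0.0765 to 0.185 in the controls. Counts of DGTT1 were thus lower relative to those of DGTT3 and of DGTT4 in every MeHg library than in any control. DGTT4 had passed as higher at both doses and DGTT1 as lower at 0.5 nM. Their ratio in part restates those changes and is no further result. The share of all gene pairs without overlap was not counted. Among single genes 60.1% did not overlap at 0.05 nM and 63.2% at 0.5 nM.

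**Figure D3:**
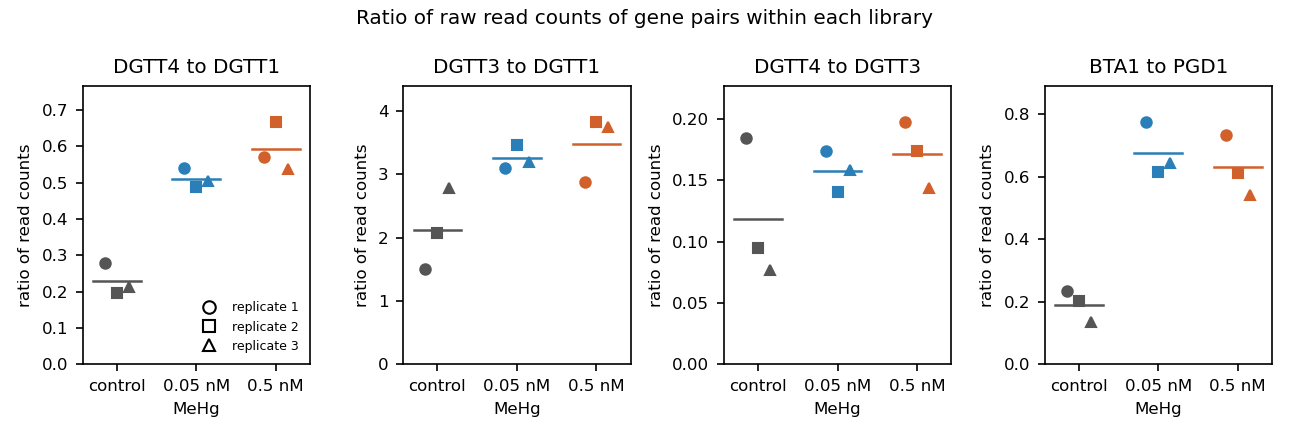
Ratio of raw read counts (vertical axis, linear from 0) of 4 pairs of genes within each library, by group, with 1 point per library, its shape giving the replicate number, and a line at the group mean. Ratios of DGTT4 to DGTT1, DGTT3 to DGTT1 and BTA1 to PGD1 do not overlap between controls and MeHg libraries, whereas those of DGTT4 to DGTT3 do. The share of all gene pairs without overlap was not counted.

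PDAT1, which forms triacylglycerol with a fatty acid taken from a membrane lipid, did not pass at either dose. Its level was 29.6, 19.9 and 18.97 CPM in the controls, 22.8, 19.7 and 18.9 CPM at 0.05 nM and 19.8, 17.1 and 15.6 CPM at 0.5 nM. Replicate 1 was the highest library of its group at each dose and in the controls, and the groups overlapped. The log2 change was -0.16 ± 0.167 at 0.05 nM (SE; edgeR adjusted p = 0.431) and -0.39 ± 0.168 at 0.5 nM (edgeR adjusted p = 0.0643). At 0.5 nM it passed as lower with the replicate block (adjusted p = 0.00246) and with 5 other alternatives, namely RLE scaling, DESeq2, and leaving out control replicate 2, control replicate 3 or 0.5 nM replicate 1. Its adjusted p there ran from 0.00246 to 0.687. Without control replicate 1 the log2 change at 0.5 nM was -0.15.

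PGD1, a lipase known in this alga for releasing fatty acids from newly made galactolipid for use in triacylglycerol, fell. It was measured at 75.1, 92.5 and 91.4 CPM in the controls, 50.2, 56.4 and 62.1 CPM at 0.05 nM and 50.7, 56.6 and 83.0 CPM at 0.5 nM. All 0.05 nM libraries lay below all controls, while 0.5 nM replicate 3 lay within the range of the controls. At 0.05 nM 60.1% of all genes had no overlap with the controls. At 0.05 nM it fell by 0.62 ± 0.169 on the log2 scale (SE), with an edgeR adjusted p of 0.00941. Scaling by library totals alone ended that call (adjusted p = 0.0517), and the other alternatives reached down to 3.41e-05. At 0.5 nM it fell by 0.45 ± 0.169 (edgeR adjusted p = 0.0379), and there the call was lost in 6 of 15 alternatives. These were library totals alone (log2 change -0.16), and leaving out control replicate 2 (-0.39), control replicate 3 (-0.40), 0.05 nM replicate 2 (-0.45), 0.5 nM replicate 1 (-0.31) or 0.5 nM replicate 2 (-0.37). With the block the adjusted p at 0.5 nM was 0.000375, and over all alternatives it ran from 0.000375 to 0.328. Without 0.5 nM replicate 3 the log2 change was -0.69.

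BTA1 and PGD1 both act on glycerolipids of membranes, BTA1 by building DGTS and PGD1 by cleaving galactolipid. Their counts in the same library gave a ratio of BTA1 to PGD1 of 0.775, 0.614 and 0.645 at 0.05 nM and 0.735, 0.614 and 0.542 at 0.5 nM, against 0.234, 0.204 and 0.134 in the controls. The lowest MeHg library was more than 2 times the highest control. This pair, too, was chosen after the values were seen. BTA1 had passed as higher and PGD1 as lower at both doses, so the gap restates those changes and is no further result.

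MLDP1, the major protein coating lipid droplets in this alga, varied more between replicates than between groups. Its level was 99.5, 27.2 and 27.3 CPM in the controls, 73.6, 32.6 and 32.8 CPM at 0.05 nM and 81.1, 31.6 and 47.1 CPM at 0.5 nM. In each group replicate 1 was well above the other two libraries. The coefficient of variation was 81.2% among controls, 50.9% at 0.05 nM and 47.5% at 0.5 nM, whereas the other 6 genes had 5.72% to 27.1%. The log2 change was -0.16 ± 0.623 at 0.05 nM (SE; edgeR adjusted p = 0.853) and 0.05 ± 0.622 at 0.5 nM (edgeR adjusted p = 0.957). The 95% confidence interval at 0.5 nM, from -1.40 to 1.49, leaves room for a change as large as that of BTA1 in either direction.

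For MLDP1 the direction differed by replicate number. Between libraries of the same number, the difference in log2 CPM of 0.05 nM minus control was -0.43 for number 1 and 0.26 for each of numbers 2 and 3. For 0.5 nM minus control it was -0.29 for number 1, 0.22 for number 2 and 0.78 for number 3. In a fit with replicates 2 and 3 of every group alone, chosen after seeing the data, MLDP1 was 0.52 higher on the log2 scale at 0.5 nM than in the controls (edgeR adjusted p = 0.0129). That fit left out number 1, the number with a negative difference. At 0.5 nM 8617 genes passed in it, beside 8905 in the main fit. The alternatives of MLDP1 at 0.5 nM spanned adjusted p-values of 0.0129 to 0.996. At 0.05 nM the fit of replicates 2 and 3 alone gave 0.26 (adjusted p = 0.185, the lowest over the alternatives for that dose). The replicate block gave 0.19 at 0.5 nM (adjusted p = 0.386). Without control replicate 1 alone, the log2 change was 0.76 at 0.05 nM and 0.96 at 0.5 nM, and neither passed.

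Other members shared the split by replicate number to a lesser degree. PDAT1, like MLDP1, had its highest library in replicate 1 of each group, a pattern seen in 19.2% of all genes. DGTT3 and PGD1 had their lowest library there, as did 15.9% of all genes. The labels do not say what the replicate number stands for. For BTA1, DGTT3, DGTT4, PDAT1 and PGD1 the difference between MeHg and control had 1 sign in all 3 replicate numbers at both doses, although some of the differences of DGTT3 and PDAT1 were close to 0. It ran from 0.88 to 1.70 at 0.05 nM and from 0.88 to 1.87 at 0.5 nM for BTA1, and from 0.44 to 1.26 and 0.60 to 1.17 for DGTT4. For PGD1 it ran from -0.71 to -0.56 at 0.05 nM and from -0.71 to -0.14 at 0.5 nM. That of DGTT3 ran from 0.26 to 0.54 at 0.05 nM and from 0.00087 to 0.52 at 0.5 nM, and that of PDAT1 from -0.38 to -0.0059 at 0.05 nM and from -0.58 to -0.22 at 0.5 nM. DGTT1 was lower in all 3 numbers at 0.5 nM and in numbers 1 and 2 at 0.05 nM. The share of all genes with 1 sign in all 3 numbers was not counted. Genes whose groups do not overlap also keep 1 sign in CPM, and these were 60.1% of all genes at 0.05 nM and 63.2% at 0.5 nM. The signs are thus no result about the members.

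**Figure D4:**
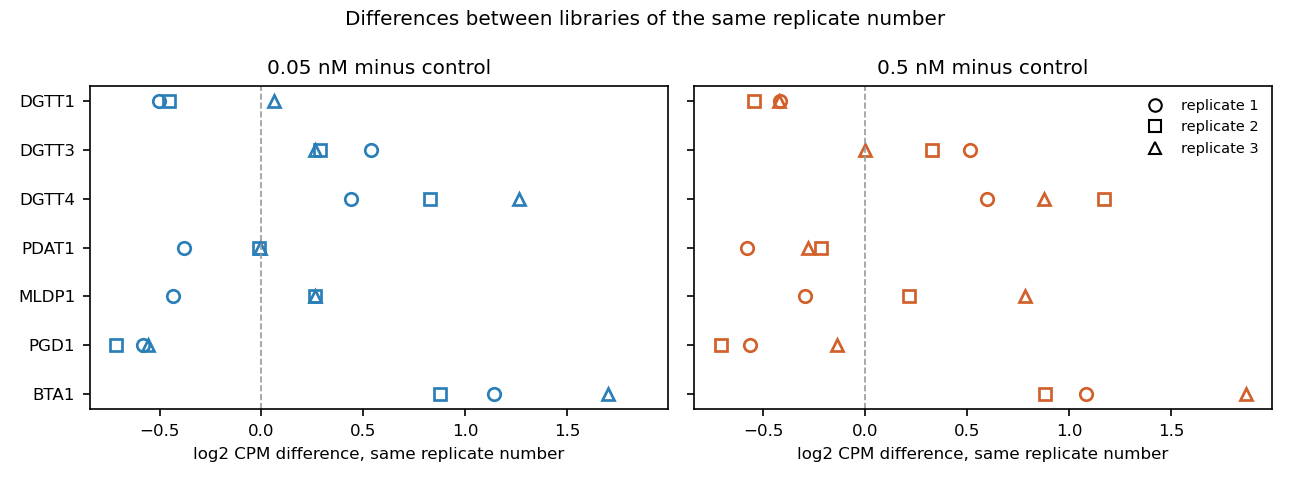
Difference in log2 CPM between the MeHg and the control library of the same replicate number (horizontal axis), for each gene, at 0.05 nM and at 0.5 nM, with the shape of a point giving the number. BTA1 lies at 0.88 or above in every pair, while MLDP1 lies below 0 for number 1 and above 0 for numbers 2 and 3 at both doses.

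Between the doses no member passed the test, and the libraries of the 2 doses overlapped for all 7, whereas they did not for 20.7% of all genes. At 0.5 nM against 0.05 nM, 0 of 7 members passed in edgeR's test, where 0.832% of all genes passed, 0.0135% as higher and 0.819% as lower. An unadjusted p under 0.05 was found for 0 members and 13.5% of all genes. DESeq2 called 0 members beside 4.37% of all genes, and the replicate block called 0 beside 8.99%. With the block 1 member, PDAT1, had an unadjusted p under 0.05 (edgeR unadjusted p = 0.0298, adjusted p = 0.164), as did 22.4% of all genes, and it was lower at 0.5 nM in all 3 replicate numbers, by differences of -0.27 to -0.20 in log2 CPM. The log2 differences, as 0.5 nM over 0.05 nM, ran from -0.22 for PDAT1 to 0.20 for MLDP1. For BTA1 the difference was 0.04, with a 95% confidence interval of -0.28 to 0.37. For DGTT4 it was 0.07 (-0.35 to 0.49), for DGTT1 -0.16 (-0.47 to 0.16), for DGTT3 -0.08 (-0.42 to 0.27), for PDAT1 -0.22 (-0.59 to 0.14) and for PGD1 0.17 (-0.20 to 0.54). These intervals allow differences of up to 0.59 in size, and that of MLDP1, from -1.24 to 1.65, allows far more.

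The authors' deposited table holds their own test of each dose against control, with a signed fold change in which a negative value is the inverse of a decrease. At 0.05 nM the authors' deposited table called 3 of the 7 members at a corrected p under 0.05 and at 0.5 nM 4, and these were the same 3 and 4 as above. Over all 17737 identifiers the authors' deposited table has 41.2% at a corrected p under 0.05 at 0.05 nM and 48.6% at 0.5 nM. The shares of all genes given above are over the 14778 genes left after the low-count filter. That table repeats the same counts, so its calls are no independent check. For BTA1 the authors' deposited table gives folds of 2.33 at 0.05 nM and 2.40 at 0.5 nM, and for DGTT4 1.76 and 1.85. For PGD1 the authors' deposited table gives -1.54 and -1.36, and for DGTT1 -1.24 and -1.38, with a corrected p of 0.137 for DGTT1 at 0.05 nM.

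A wider list of 28 locus numbers recalled for other steps of glycerolipid metabolism was counted beside the members. Of these, 22 were in the count files and 20 were tested. No table used here pairs these numbers with names, so their roles could not be checked, and they are given by identifier and by the heading under which they were listed. At 0.05 nM 9 of the 20 were higher and 4 lower than in the controls, where 27.2% of all genes were higher and 25.0% lower. At 0.5 nM 7 were higher and 7 lower, where 31.6% of all genes were higher and 28.7% lower. The replicate block gave 9 higher and 5 lower at 0.05 nM (33.2% and 30.5% of all genes) and 8 in each direction at 0.5 nM (36.7% and 32.8% of all genes). Their median log2 change was 0.02 at 0.05 nM and -0.16 at 0.5 nM. Of 3 loci listed as further acyltransferases, 1 was in the count files, with 24 to 82 reads per library. It was higher by 0.67 at 0.05 nM (edgeR adjusted p = 0.0164) and by 0.79 at 0.5 nM (edgeR adjusted p = 0.0051). Of 5 loci listed for glycerol 3-phosphate and phosphatidate, 2 were higher at 0.05 nM, and 2 were higher and 2 lower at 0.5 nM, and the replicate block added 1 lower locus at each dose. Of 4 listed for galactolipid, sulfolipid, phosphatidylglycerol and inositol synthesis, 2 were higher and 1 lower at 0.05 nM, and 2 were lower at 0.5 nM, where the block added 1 higher locus. Of 3 loci listed for the supply of S-adenosylmethionine, which DGTS synthesis uses, 2 were in the count files. Neither of these passed at either dose, and the heading is only partly covered.

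The 2 loci of the wider list with the largest rise and the 2 with the largest fall at 0.5 nM are given here. Cre01.g038600, listed among the desaturases, had 103 ± 9.34 against 41.3 ± 4.55 CPM in the controls (SD, n = 3 each). It was higher by 1.33 ± 0.109 on the log2 scale (SE), with an edgeR adjusted p of 1.95e-06. Cre17.g711150, from the same heading, had 7.67 ± 1.85 against 3.15 ± 0.604 CPM in the controls (SD, n = 3 each). Its counts were low, at 34 to 68 reads per control library. It was higher by 1.29 ± 0.203 (edgeR adjusted p = 0.000205), and by 1.56 ± 0.201 at 0.05 nM (edgeR adjusted p = 7.05e-05). Of the 4 desaturase loci 2 were thus higher, 1 was lower and 1 did not pass, at both doses. Cre12.g495100, listed among regulators, had 26.3 ± 2.72 against 54.9 ± 6.67 CPM in the controls (SD, n = 3 each). It fell by 1.06 ± 0.112 on the log2 scale (edgeR adjusted p = 1.05e-05), and of the 4 loci under that heading 2 were higher and 2 lower at both doses. Cre13.g583600, listed for galactolipid synthesis, had a log2 change of -0.92 ± 0.104 (edgeR adjusted p = 1.85e-05).

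**Figure D5:**
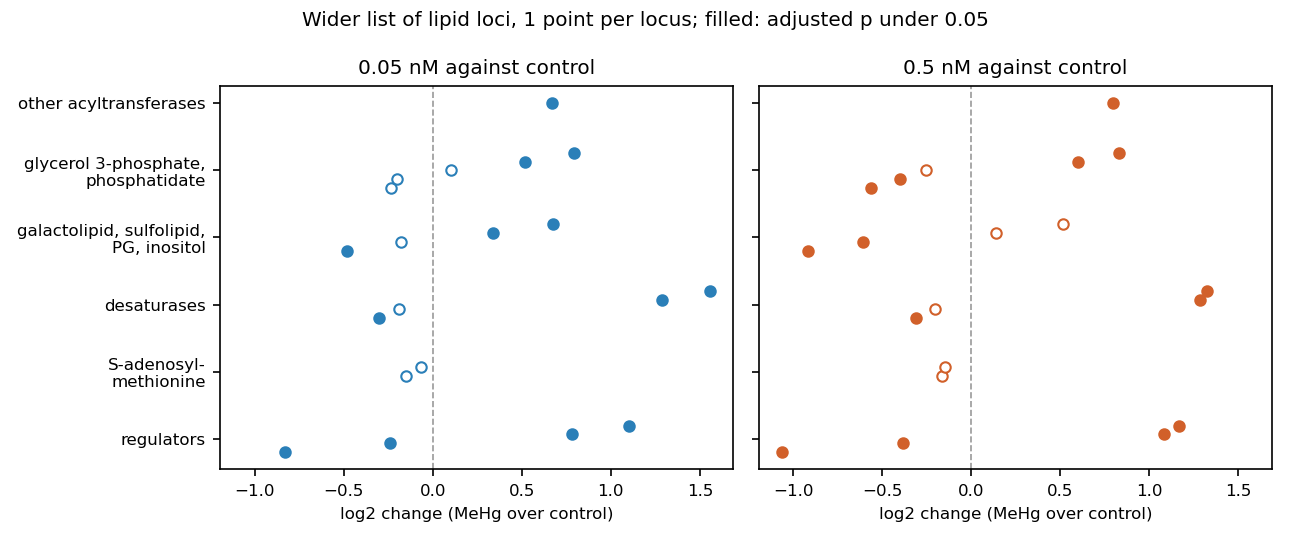
Log2 change of the 20 tested loci of the wider list (horizontal axis, MeHg over control) at 0.05 nM and at 0.5 nM, 1 point per locus, by the heading under which the locus number was listed. Filled points passed at an adjusted p under 0.05, 13 at 0.05 nM and 14 at 0.5 nM, and loci on both sides of 0 are seen under most headings.

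The genes most like single members in their pattern over the 9 libraries were looked up by Pearson's correlation of log2 CPM. The 9 points share groups and replicate numbers, so the values are a description. Cre03.g201050 was the closest to BTA1 (r = 0.994), at 5.02 CPM at 0.05 nM and 5.14 CPM at 0.5 nM against 2.09 CPM in the controls. The closest to MLDP1 was g14201 (r = 0.994), with means of 10.2 CPM at 0.05 nM, 10.6 CPM at 0.5 nM and 10.1 CPM in the controls. Cre05.g242300 was the closest to PDAT1 (r = 0.984) and Cre02.g099500 to PGD1 (r = 0.974).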

How the data were processed

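Polyadenylated RNA of 9 libraries, 3 biological replicates per group per the series design, was sequenced with a stranded kit, per the labels. Reads were aligned with TopHat2 and counted per gene with HTSeq, per the submitters' processing notes. The sources used here do not name versions, genome build, annotation or strand setting. Ambiguous reads are an unassigned category, so overlapping genes may have lost reads. The authors deposited raw read counts. Unassigned categories were kept out; reads outside gene models made up 1.02% to 1.24% of assigned, ambiguous and outside reads. The authors' deposited series table repeats the counts (9 of 9 columns equal) and adds their fold change, a signed score, with p-values and corrected p-values. Its 9 columns of normalized values per sample were not used. No 2 libraries were identical.

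The main test was that of edgeR 4.0.16 in R 4.3.3 (filterByExpr, TMM, robust quasi-likelihood fit on all 9 libraries, group as the only term, 6 residual degrees of freedom, two-sided) and Benjamini-Hochberg adjustment over 14778 genes at 0.05. The standard error is the log2 change divided by the root of F. Log2 CPM used a prior count of 2. The fit was tested on simulated data. Alternatives were RLE scaling, library totals alone, no low-count filter, DESeq2 1.42.0, a replicate block and leaving out each library; replicates 2 and 3 alone were added after seeing the data. Deviations from group means of libraries with the same replicate number in the labels correlated at 0.104 to 0.63 in all 9 pairs. These lie above the 0.1 used to treat the numbers as pairing, although in 2 of 9 another number was closer. Deviations are taken from the mean of the same group, so agreement of number 1 by itself raises the values of numbers 2 and 3. Pairing was thus seen clearly for number 1 only. All 7 members are named, and from the wider list up to 2 loci with the largest rise and 2 with the largest fall at 0.5 nM among those that passed. For likeness, the closest gene is given for the 2 members with positive and the 2 with negative change at 0.5 nM that had the highest correlation. The planned comparison of DGTT protein and promoter sequences was not run, since no sequences were at hand. The members and lists were chosen with earlier results of these data known. All 7 members and 27 of 28 listed loci matched a locus tag of the RefSeq table of assembly version 5.5, which gives 0 of the members another symbol.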

Additional observations from a re-analysis of the deposited data

Results flagged for a closer look

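Cre01.g053000, a locus of the wider list under glycerol 3-phosphate and phosphatidate and named after its values were seen, differed between the doses by the direct test. It had 45.4, 60.3 and 47.7 CPM at 0.5 nM, against 79.3, 86.7 and 77.9 CPM at 0.05 nM, and was lower at 0.5 nM by a log2 difference of -0.67 ± 0.137 (SE), with an edgeR adjusted p of 0.04999. The controls had 65.2, 89.3 and 72.4 CPM. Against the controls its log2 change was -0.56 at 0.5 nM (edgeR adjusted p = 0.00388) and 0.10 at 0.05 nM (edgeR adjusted p = 0.543). Over the alternatives the adjusted p of the difference ran from 6.72e-05, with the replicate block, to 0.264, without 0.05 nM replicate 2. It was lost in 9 of 15 alternatives: library totals alone, replicates 2 and 3 alone, and without any one of control replicates 2 and 3, the 3 libraries at 0.05 nM and 0.5 nM replicates 1 and 3.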

How the results depend on the processing

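Of 315 values for the 7 members over 15 alternatives and 3 comparisons, 277 kept direction and call, 13 became calls, 9 lost the call and 16 changed sign. With library totals alone, 5905 genes were higher and 2080 lower at 0.05 nM, and 6707 higher and 2557 lower at 0.5 nM. Members called were then 3 higher and 0 lower at each dose, and wider-list loci 10 higher and 1 lower at 0.05 nM and 9 higher and 2 lower at 0.5 nM. PDAT1 (0.081) and MLDP1 (0.060) were then positive at 0.05 nM. Between the doses that scaling gave 0 genes higher and 0 lower in edgeR's test (1530 at an unadjusted p under 0.05), 0 of the wider list among them. The replicate block gave 2 members lower at 0.05 nM, and between the doses 287 genes higher and 1041 lower, 3 of the wider list among the lower; beyond the calls given above it changed no other call of a member. DESeq2 gave 46 higher and 600 lower between the doses, 3 of the wider list among the lower. RLE scaling turned MLDP1 to -0.0044 at 0.5 nM. Replicates 2 and 3 alone gave MLDP1 at 0.26 at 0.05 nM, and between the doses 0 genes higher, 1 lower and 0 of the wider list. With 1 library left out, members called lower numbered 1 to 2 at each dose, and between the doses 0 to 20 genes were higher, 0 to 363 lower and 0 to 2 of the wider list lower; no gene passed in edgeR's test in 7 of those 9 cases (with library totals included, 1254 to 2020 had an unadjusted p under 0.05). Leaving out a library moved PDAT1 from -0.28 to 0.068 and MLDP1 from -0.66 to 0.76 at 0.05 nM, MLDP1 from -0.40 to 0.96 at 0.5 nM, and Cre01.g053000 from -0.00011 to 0.24 at 0.05 nM. Between the doses it moved DGTT4 from -0.063 to 0.20, MLDP1 from -0.24 to 0.71, PGD1 from -0.072 to 0.31, BTA1 from -0.076 to 0.12 and Cre01.g038600 from -0.027 to 0.11. The cause of these shifts was not tested. DGTT4, with 27 to 114 reads per library, is the member whose precision is most limited by depth.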
